A study of Mus musculus with 6 samples.

Results

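The 39 genes described here are 24 glycolytic enzymes and sugar or lactate transporters, 10 other known targets of the hypoxia-inducible factors (HIF), and 5 genes of the HIF system itself, namely the HIF subunits and the prolyl hydroxylases that control them. They were taken by gene symbol from a table of 18476 genes, and all 39 were found in it. Wire injury, in which a guide wire damages the vessel wall from inside, had been made in the femoral artery of wild-type C57BL/6 mice in both groups, and the arteries were taken at day 3. Treated arteries received vasostatin-2, a peptide fragment of chromogranin A, around the vessel, and the others received saline there. Each group had 3 libraries, described as biological replicates without saying whether each came from 1 animal or a pool, so p-values measure the spread between these samples. All 6 carried the same batch label.

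Glycolysis splits glucose to pyruvate in the cytosol, and lactate dehydrogenase and the monocarboxylate transporters then turn pyruvate to lactate and move it across the membrane. Most genes of the pathway have HIF-binding elements, so that cells short of oxygen, and activated macrophages, raise glucose uptake and lactate output. HIF is a dimer of an oxygen-labile alpha subunit (Hif1a or Epas1) and the stable Arnt, and the prolyl hydroxylases Egln1 and Egln3 mark the alpha subunits for degradation while oxygen is present. In an injured artery the pathway runs in smooth muscle cells, fibroblasts and invading leukocytes alike. In bulk arteries, fewer cells of a type and less RNA per cell cannot be told apart.

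Levels are given in the deposited TPM, a transcript level scaled for gene length and library size, so genes can be compared. Differences are log2 fold changes of vasostatin-2 over saline, fitted on the estimated counts with edgeR's quasi-likelihood test. Total estimated counts lay between 19400272 and 19901763 in the vasostatin-2 libraries and between 19333730 and 20105995 in the saline libraries. All 39 members passed the filter on low counts, with mean counts from 39.7 upward. The cell type is labelled as vascular smooth muscle, whereas the RNA is described as coming from the artery. None of the markers of contractile smooth muscle, macrophages, fibroblasts, endothelium or adipocytes in the lists used was at 0 in all libraries, and the 12 monocyte and macrophage markers summed to between 14929 and 15640 TPM with vasostatin-2 and between 11960 and 16491 TPM with saline. The 11 contractile smooth muscle markers summed to between 903 and 2245 TPM with vasostatin-2 and between 849 and 1888 TPM with saline.

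Most glycolytic and HIF genes stood lower in the vasostatin-2 arteries, by small amounts, with the lactate exporter Slc16a3, the mitochondrial protein Ndufa4l2 and the HIF target Ankrd37 furthest down. Of the 39 members, 34 had a log2 fold change below 0, as did 50.2% of the 14557 genes tested. The median was −0.21 for the 24 glycolytic genes, −0.20 for the 10 other HIF targets and −0.13 for the 5 HIF subunits and hydroxylases, against −0.00068 over all tested genes. The members had been chosen with earlier results of these data known, and a lower glycolysis list was among those results, so these counts are a description.

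edgeR's test with Benjamini-Hochberg adjustment called 0 of the 39 members at an adjusted p of 0.05, and 0% of all 14557 genes. The lowest adjusted p among members was 0.234, for Ndufa4l2. At an unadjusted p of 0.05 edgeR gave 15 members lower and 1 higher, where 3.85% of all genes were lower and 3.29% higher, 7.14% in either direction. DESeq2 with the same adjustment called 4 members, all lower, namely Ndufa4l2, Slc2a1, Pgk1 and Slc16a3, against 0.809% of the 13973 genes with an adjusted value (0.458% lower). limma-voom called 0 members. The authors' deposited table has the same 4 members below a q-value of 0.05, with q-values of 3.70e-06 for Ndufa4l2, 0.00405 for Slc2a1, 0.0102 for Pgk1 and 0.0131 for Slc16a3, against 0.533% of its 18401 genes with a q-value (0.310% lower). In TPM, every vasostatin-2 library lay below every saline library for 16 members, against 5.96% of tested genes, and above every saline library for 1 member, Eno2, against 5.91% (11.9% of tested genes in either direction).

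**Figure D1:**
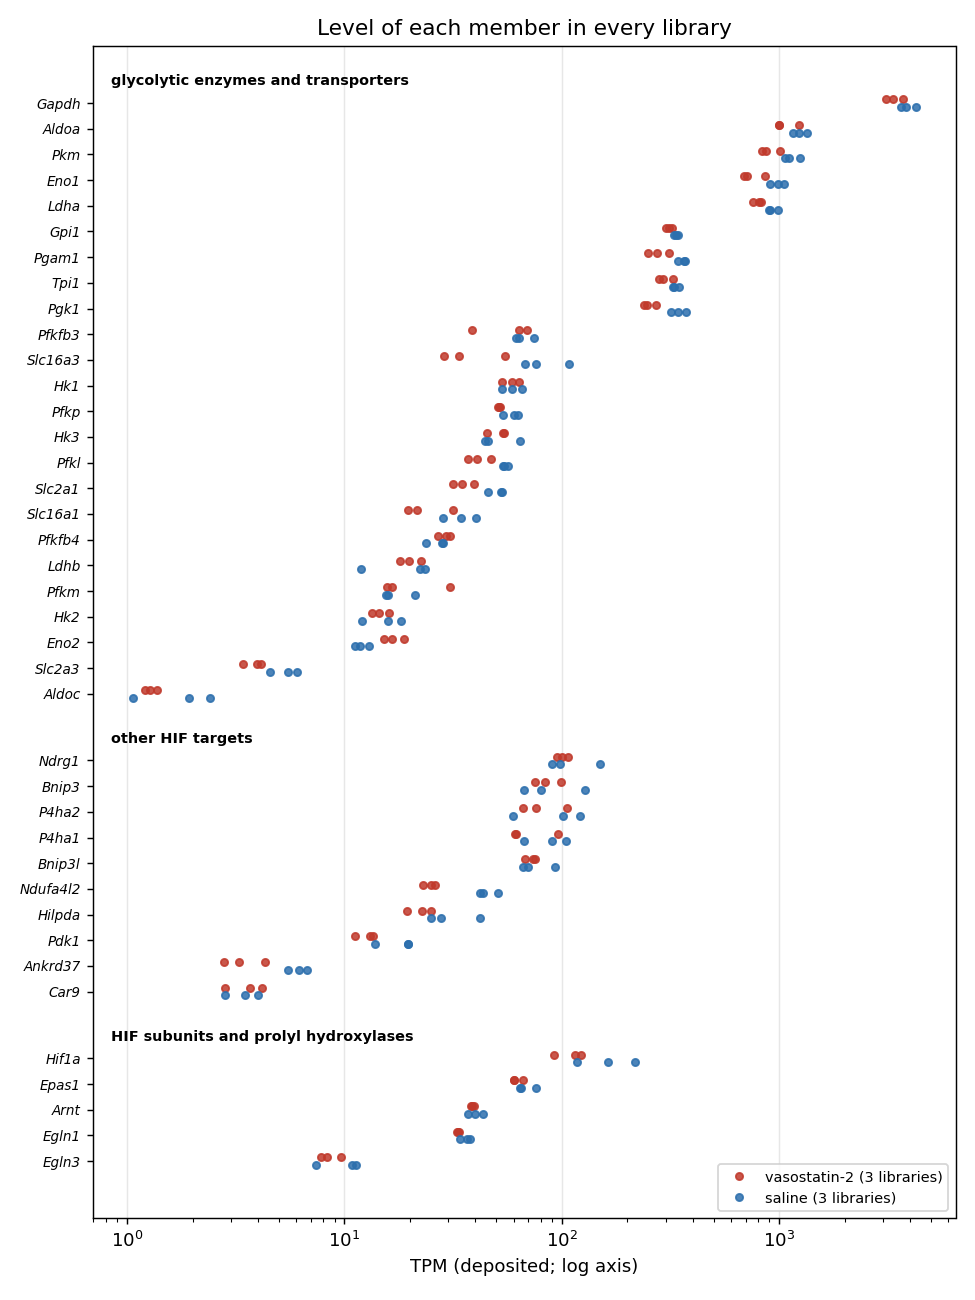
Deposited TPM of the 39 members in each of the 6 libraries, on a log axis, grouped by role and ordered by mean level; red points are vasostatin-2 libraries and blue points saline libraries. Gapdh stands highest and Aldoc lowest, and the groups are separate for 17 of the 39 genes.

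Sugar enters and lactate leaves the cell through the products of 4 members, and all 4 stood lower with vasostatin-2. The proximal promoters of the glucose transporter Slc2a1 and the lactate exporter Slc16a3 are shown with those of Pgk1, the third member of the glycolytic list that DESeq2 called, and of Eno2, the one member that stood apart in the opposite direction. They run 5′ to 3′ on the gene's strand over 161 bases, from 170 to 10 bases before the RefSeq transcription start (GRCm38.p6), and capitals mark the core of the hypoxia response element, ACGTG or GCGTG, read on either strand (CACGT or CACGC on the other strand; the motifs can overlap).
Slc2a1 (chr4:119108575-119108735, plus strand): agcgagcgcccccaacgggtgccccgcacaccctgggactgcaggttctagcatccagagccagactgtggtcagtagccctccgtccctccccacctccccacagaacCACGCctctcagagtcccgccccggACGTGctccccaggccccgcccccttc
Slc16a3 (chr11:120948897-120949057, plus strand): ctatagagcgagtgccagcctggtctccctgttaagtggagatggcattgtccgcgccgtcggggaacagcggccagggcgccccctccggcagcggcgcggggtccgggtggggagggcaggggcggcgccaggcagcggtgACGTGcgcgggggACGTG
Pgk1 (chrX:106186930-106187090, plus strand): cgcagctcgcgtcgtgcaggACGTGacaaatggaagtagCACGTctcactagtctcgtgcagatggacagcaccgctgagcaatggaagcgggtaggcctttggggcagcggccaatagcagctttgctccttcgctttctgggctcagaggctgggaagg
Eno2 (chr6:124769683-124769843, minus strand): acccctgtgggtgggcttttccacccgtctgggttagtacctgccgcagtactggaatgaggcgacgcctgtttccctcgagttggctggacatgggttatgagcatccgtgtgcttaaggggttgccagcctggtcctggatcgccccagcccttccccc
Slc2a1 held the core 61 and 36 bases before the start, Slc16a3 27 and 14 bases before it and Pgk1 150 and 131 bases before it. The RefSeq start used for Slc16a3 lies inside the deposited gene, which begins at 120948484, and the bases before that position were not searched. The same holds for some other members, such as Hif1a. The Eno2 promoter held 0 copies in the full 250 bases upstream. So did those of Gpi1 and Tpi1, which had log2 fold changes of −0.11 and −0.15. RefSeq's table gave promoters for 34 of the 39 members, of which 31 held the core in the 250 bases before at least 1 start (91.2%), against 58.8% of the 11520 tested genes with a promoter in the table and 41.5% of all 27018 genes in it. No promoter was given there for Slc2a3, Ndufa4l2, Bnip3l, Ndrg1 and Epas1. Counted per start rather than per gene, 81.25% of the 48 promoters of members held it, against 53.1% of the 14689 promoters of tested genes. The members were picked as glycolytic genes and known HIF targets, so a higher share than over all genes is no separate result. A core match is a description of the letters in this window. Of the members lower at an unadjusted p of 0.05, the 13 with a promoter all held it, and so did 18 of the 20 members with a larger p.

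Slc2a1 encodes GLUT1, the main glucose importer of most dividing and inflamed tissue. It was at 31.4, 34.8 and 39.3 TPM in the vasostatin-2 libraries, against 52.4, 45.6 and 53.0 TPM in the saline libraries. All 3 vasostatin-2 libraries lay below all 3 saline libraries. Its log2 fold change was −0.50 (SE 0.088; edgeR unadjusted p = 7.89e-04, adjusted p = 0.422; DESeq2 adjusted p = 0.00336), and between −0.58 and −0.43 when each library was left out in turn. Slc2a3, which encodes the high-affinity importer GLUT3 of leukocytes and neurons, was far scarcer, at 3.97, 4.15 and 3.41 TPM with vasostatin-2 and 5.51, 6.06 and 4.52 TPM with saline. Its groups did not overlap either, with a log2 fold change of −0.47 (SE 0.17; edgeR unadjusted p = 0.028, adjusted p = 0.681). GLUT1 transcripts made up 90.1% of the summed TPM of the pair with vasostatin-2 and 90.3% with saline, a difference smaller than the SD within either group.

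Slc16a3 encodes MCT4, the lactate exporter of strongly glycolytic cells, and had the largest fitted difference of the 39. It was at 33.8, 28.6 and 55.0 TPM with vasostatin-2 and 108, 67.3 and 76.0 TPM with saline, a mean of 39.2 ± 14.0 against 83.8 ± 21.4 TPM (SD, n = 3 each). The highest vasostatin-2 library, replicate 3, still lay below the lowest saline library. The log2 fold change was −1.08 (SE 0.27; edgeR unadjusted p = 0.00519, adjusted p = 0.548; DESeq2 adjusted p = 0.0109), and it was −1.40 without vasostatin-2 replicate 3 and −0.89 without saline replicate 1. Slc16a1, which encodes MCT1, the transporter that moves lactate in either direction, was at 31.6, 19.6 and 21.6 TPM with vasostatin-2 and 40.1, 28.5 and 34.2 TPM with saline. Here vasostatin-2 replicate 1 lay inside the saline range, and the log2 fold change was −0.48 (SE 0.19; edgeR unadjusted p = 0.0418, adjusted p = 0.684). On GRCm38.p6, Slc2a1 (gene 20525) lies on chromosome 4 from 119108745 to 119138802 and Slc16a3 (gene 80879) on chromosome 11 from 120948484 to 120959000. The Slc16a3 locus overlaps Csnk1d, annotated on the same strand, by 1292 bases. Csnk1d was at a mean of 89.85 TPM, against 61.5 TPM for Slc16a3, and had a log2 fold change of −0.0028. Its part in the Slc16a3 level was not tested.

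Glucose is trapped by the hexokinases, and the transcripts of all 3 members differed by less than their errors. Hk1, the housekeeping form, ranged from 52.9 to 65.5 TPM over the 6 libraries, Hk2, the inducible form and a HIF target, from 12.1 to 18.1 TPM, and Hk3, the form of myeloid cells, from 44.5 to 64.2 TPM. Their log2 fold changes were −0.013 (SE 0.092), −0.071 (SE 0.13) and −0.011 (SE 0.18), and the sign of each turned when single libraries were left out. Gpi1, which isomerises glucose 6-phosphate, was at 301, 310.1 and 321 TPM with vasostatin-2 and 336, 342 and 328 TPM with saline. The groups did not overlap, but the difference was slight (log2 fold change −0.11, SE 0.084; edgeR unadjusted p = 0.246).

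Phosphofructokinase, the committed step, is built from liver, platelet and muscle subunits, and the liver and platelet forms were lower with vasostatin-2. Pfkl, the liver form, was at 40.8, 36.9 and 47.3 TPM with vasostatin-2 and 54.3, 56.7 and 53.5 TPM with saline, with groups apart (log2 fold change −0.39, SE 0.11; edgeR unadjusted p = 0.00811, adjusted p = 0.579). Pfkp, the platelet form, was at 51.3, 51.8 and 51.1 TPM with vasostatin-2 and 60.0, 53.8 and 62.5 TPM with saline. The 3 vasostatin-2 libraries were nearly equal and below the saline ones, for a log2 fold change of −0.18 (SE 0.063; edgeR unadjusted p = 0.0266, adjusted p = 0.681). Pfkp shares 285 bases with Pitrm1 on the opposite strand, which was at a mean of 49.5 TPM and had a log2 fold change of −0.15. The part of Pitrm1 in the Pfkp value was not tested. Pfkm, the muscle form, ranged from 15.6 to 30.5 TPM and was highest in vasostatin-2 replicate 3. Its log2 fold change was 0.25, but −0.11 without that library. The 15 skeletal muscle markers summed to 1617 TPM in that library, 105 and 132 TPM in the other vasostatin-2 libraries, and between 135 and 182 TPM in the saline libraries. Their part in the Pfkm value was not tested. The bifunctional enzymes that set the level of the activator fructose 2,6-bisphosphate overlapped between groups. Pfkfb3 ranged from 38.5 to 74.8 TPM and Pfkfb4 from 23.6 to 30.4 TPM, with log2 fold changes of −0.21 (SE 0.22) and 0.13 (SE 0.10).

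Aldolase, which splits the sugar into triose phosphates, and triose phosphate isomerase overlapped between groups. Aldoa, the aldolase of muscle and most other tissue, was at 995, 998 and 1236 TPM with vasostatin-2 and 1231, 1339.7 and 1162 TPM with saline. Vasostatin-2 replicate 3 lay within the saline range and the other vasostatin-2 libraries below it, and the log2 fold change was −0.21 (SE 0.13; edgeR unadjusted p = 0.154), or −0.32 without that library, the one with the high skeletal muscle markers. Aldoc, the brain aldolase, ranged from 1.06 to 2.41 TPM with a log2 fold change of −0.49 (SE 0.34), and Tpi1 from 279.8 to 347 TPM with one of −0.15 (SE 0.085).

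The later steps, from glyceraldehyde 3-phosphate to lactate, held Gapdh, Pkm, Eno1 and Ldha, all among the most abundant members. Gapdh, the glyceraldehyde-phosphate dehydrogenase often used as a reference transcript, was at 3088, 3350.2 and 3718 TPM with vasostatin-2 and 4272, 3623 and 3810.2 TPM with saline. Vasostatin-2 replicate 3 lay above the lowest saline library, so the groups overlapped (log2 fold change −0.20, SE 0.12; edgeR unadjusted p = 0.138). Pgk1, phosphoglycerate kinase, the first ATP-forming step, was at 247, 239.9 and 270.4 TPM with vasostatin-2 and 374, 343 and 316 TPM with saline. All vasostatin-2 libraries lay below all saline libraries, with a log2 fold change of −0.44 (SE 0.095; edgeR unadjusted p = 0.00232, adjusted p = 0.458; DESeq2 adjusted p = 0.00944) that stayed between −0.51 and −0.40 when each library was left out. Pgk1 (gene 18655) lies on chromosome X from 106187100 to 106203699. Pgam1, phosphoglycerate mutase, was at 249.8, 275 and 312 TPM with vasostatin-2 and 369.5, 364 and 343 TPM with saline, again without overlap (log2 fold change −0.36, SE 0.10; edgeR unadjusted p = 0.0112, adjusted p = 0.601). Pgam1 shares 2260 bases with Exosc1 on the opposite strand, which was at a mean of 29.4 TPM and had a log2 fold change of −0.073.

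The enolases stood on opposite sides of their saline levels. Eno1, the ubiquitous enolase, was at 711, 688 and 857 TPM with vasostatin-2 and 1056, 907 and 983 TPM with saline. All vasostatin-2 libraries lay below the saline ones (log2 fold change −0.38, SE 0.11; edgeR unadjusted p = 0.0118, adjusted p = 0.601). Eno2, the enolase named for neurons and also found in other cells, was at 15.1, 18.7 and 16.6 TPM with vasostatin-2 and 11.8, 13.0 and 11.2 TPM with saline. It was the one member whose vasostatin-2 libraries all lay above the saline libraries, with a log2 fold change of 0.46 (SE 0.12; edgeR unadjusted p = 0.00706, adjusted p = 0.566) that lay between 0.38 and 0.55 when each library was left out. The 10 Schwann cell and nerve markers summed to between 224 and 303 TPM with vasostatin-2, and to 199, 194 and 959 TPM with saline replicates 1, 2 and 3. Their part in the Eno2 value was not tested. Eno2 (gene 13807) lies on chromosome 6 from 124760053 to 124769673.

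Pyruvate kinase and lactate dehydrogenase end the pathway. Pkm was at 836, 873 and 1004 TPM with vasostatin-2 and 1249, 1111 and 1062 TPM with saline, with groups apart (log2 fold change −0.32, SE 0.12; edgeR unadjusted p = 0.0281, adjusted p = 0.681). Ldha, the subunit favoured when pyruvate is reduced to lactate, was at 806, 761 and 821 TPM with vasostatin-2 and 912, 898 and 986 TPM with saline. Its groups were apart as well, at a smaller log2 fold change of −0.22 (SE 0.085; edgeR unadjusted p = 0.0357, adjusted p = 0.681). Ldhb, the heart-type subunit, ranged from 11.9 to 23.5 TPM and had a log2 fold change smaller than its error (0.069, SE 0.27). Pseudogenes and retrocopies of Gapdh, Pgk1, Aldoa, Eno1, Pkm and Ldha could share reads with them, which makes their levels uncertain.

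Summed over the 24 glycolytic members, the pathway took 7985, 8206 and 9368 TPM in the vasostatin-2 libraries and 10728, 9789 and 9871 TPM in the saline libraries. That was a mean of 0.852% of all transcripts with vasostatin-2 and 1.01% with saline. The sums did not overlap, also without Gapdh, at 4896, 4856 and 5651 TPM with vasostatin-2 and 6457, 6166 and 6061 TPM with saline. Among the vasostatin-2 libraries replicate 3 had the highest level for 15 of the 24 genes, and without it the median log2 fold change of the 24 was −0.28. Of the 24, 11 were lower and 1 higher at an unadjusted p of 0.05, and the other 12 had a larger p. Over all tested genes, 3.85% were lower and 3.29% higher at that threshold. The 13 neutrophil markers, cells that rely on glycolysis, summed to between 407 and 867 TPM with vasostatin-2 and between 899 and 1327 TPM with saline, with all 11 tested markers lower, 5 of them at an unadjusted p of 0.05. Of the 12 monocyte and macrophage markers, 6 were higher at that threshold and none lower. The part of either cell type in the glycolytic difference was not tested.

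**Figure D2:**
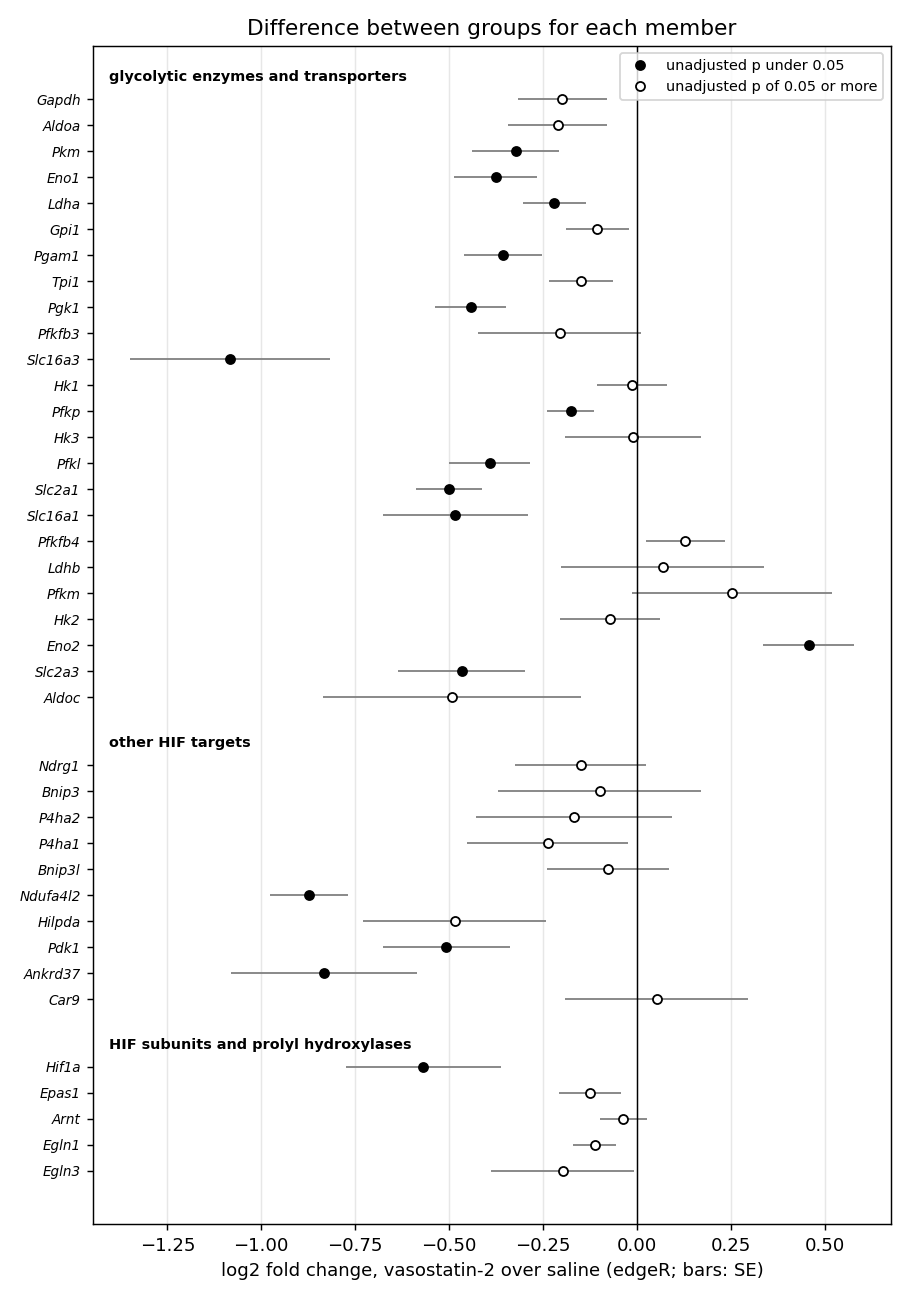
Fitted log2 fold change of vasostatin-2 over saline for the 39 members with its standard error (edgeR), in the same order; filled points have an unadjusted p under 0.05. Of the 16 filled points, 15 lie below 0 and 1, Eno2, above it.

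Since each family holds isozymes with different roles, the share of one member in the summed TPM of its family was compared, as 12 shares. An exact permutation test over 3 against 3 libraries cannot go below p = 0.1, and with 12 shares every adjusted p was 1. Eno1 made up 97.9%, 97.4% and 98.1% of the enolase transcripts with vasostatin-2 and 98.9%, 98.6% and 98.9% with saline, the one share whose groups did not overlap (two-sided exact permutation p = 0.1). Slc16a3 made up 60.9 ± 10.1% of the lactate transporter transcripts with vasostatin-2 and 70.7 ± 2.02% with saline (SD, n = 3 each; two-sided exact permutation p = 0.3). The vasostatin-2 libraries scattered widely there, at 51.7%, 59.3% and 71.8%, with replicate 3 inside the saline range. Pfkm made up 14.6%, 15.8% and 23.7% of the phosphofructokinase transcripts with vasostatin-2 and 15.6%, 12.4% and 12.1% with saline (two-sided exact permutation p = 0.2), and the high value was again replicate 3. Ldha made up at least 97.1% of lactate dehydrogenase transcripts and Aldoa at least 99.8% of aldolase transcripts in every library. For 6 further shares the means differed by less than the SD of the saline libraries. Hk2 averaged 11.9% of its family with vasostatin-2 and 12.2% with saline, Hk3 41.0% with vasostatin-2 and 40.7% with saline, and Pfkp 45.5% with vasostatin-2 and 44.8% with saline. Bnip3 averaged 54.2% with vasostatin-2 and 53.9% with saline, P4ha1 46.7% with vasostatin-2 and 48.6% with saline, and Egln3 20.4% with vasostatin-2 and 21.3% with saline.

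**Figure D3:**
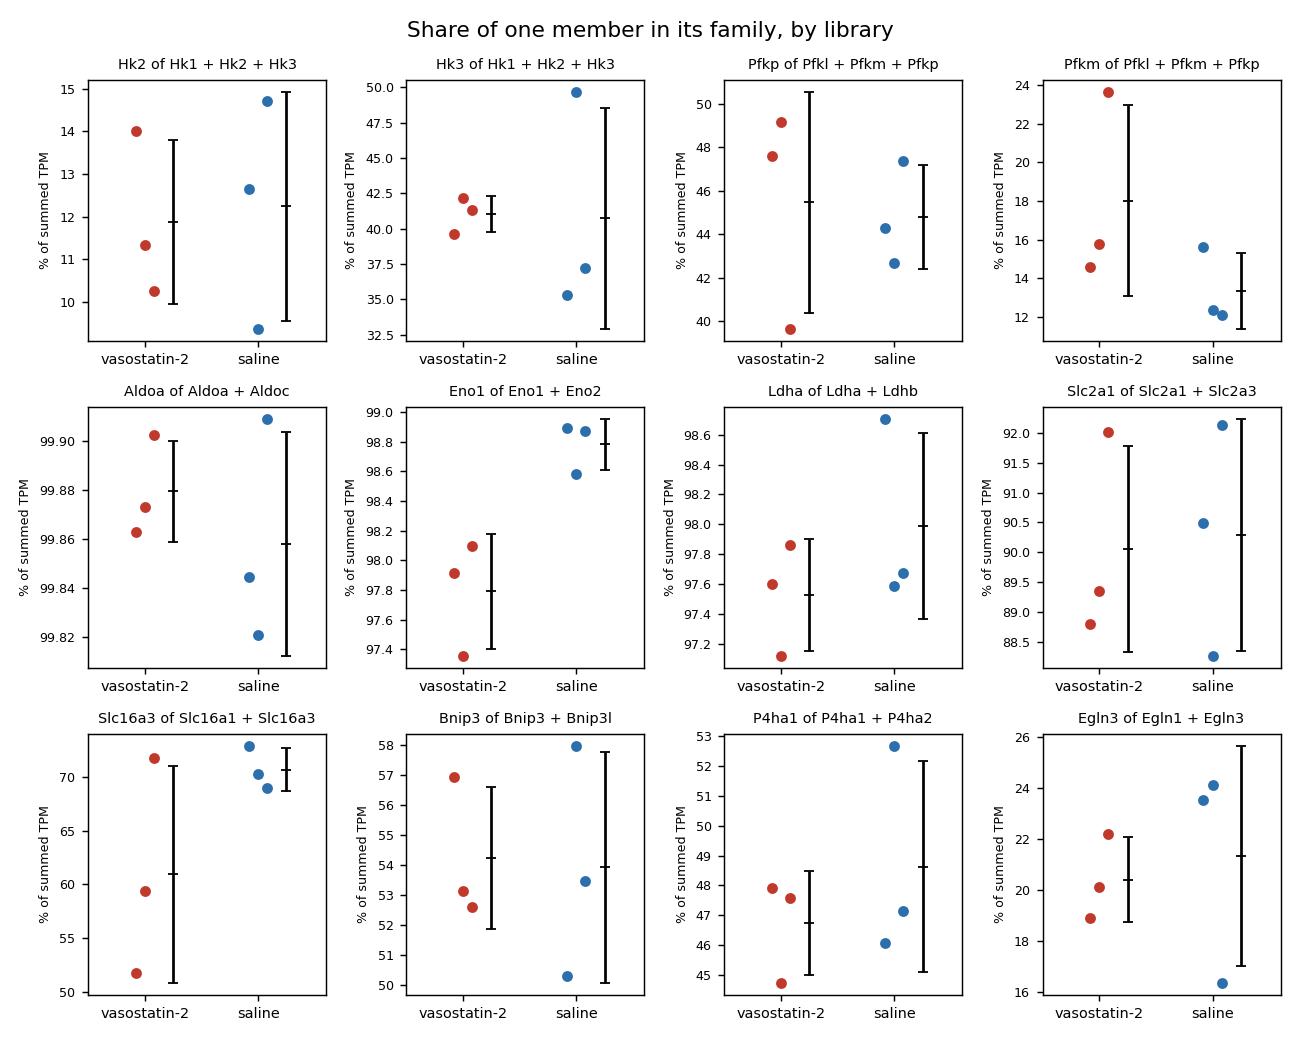
Share of 1 member in the summed TPM of its family, in percent, for the 12 comparisons; points are libraries, with vasostatin-2 left of saline, and the black bars beside them are mean and SD of the 3 libraries. The axes do not start at 0. The groups are separate for Eno1 of Eno1 and Eno2 (97.4% to 98.1% with vasostatin-2, 98.6% to 98.9% with saline) and overlap in the other panels.

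Outside glycolysis, the HIF targets Ndufa4l2, Ankrd37 and Pdk1 were lower at an unadjusted p of 0.05, as were 3.85% of all tested genes. The other 7 targets had a larger p. Ndufa4l2, a mitochondrial protein induced by HIF that lowers electron transport and is also known from pericytes, was at 23.0, 26.0 and 25.02 TPM with vasostatin-2 and 50.8, 43.5 and 42.1 TPM with saline. The highest vasostatin-2 library was far below the lowest saline library, and replicates lay close together in both groups. The log2 fold change was −0.87 (SE 0.10; edgeR unadjusted p = 7.45e-05, adjusted p = 0.234; DESeq2 adjusted p = 1.73e-06), and between −0.94 and −0.81 when each library was left out. The 8 pericyte markers summed to between 254 and 281 TPM with vasostatin-2 and between 263 and 323 TPM with saline, overlapping sums, with a median log2 fold change of −0.14. Of these 8 markers, 1 was lower and 0 were higher at an unadjusted p of 0.05. Their part in the Ndufa4l2 value was not tested. Ndufa4l2 (gene 407790) lies on chromosome 10 from 127509274 to 127517154 and shares 32 bases with Shmt2 on the opposite strand. Shmt2 had a log2 fold change of −0.17.

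Ankrd37, a small ankyrin-repeat protein and direct HIF target, was at 4.31, 2.78 and 3.28 TPM with vasostatin-2 and 6.75, 5.47 and 6.20 TPM with saline. All vasostatin-2 libraries lay below the saline ones (log2 fold change −0.83, SE 0.25; edgeR unadjusted p = 0.0119, adjusted p = 0.601), at a mean of only 41.8 counts per library. Its end overlaps 51 bases of the abundant Ufsp2 on the opposite strand, which had a log2 fold change of −0.16. Pdk1, a kinase that inhibits pyruvate dehydrogenase, was at 13.1, 11.2 and 13.6 TPM with vasostatin-2 and 19.7, 19.5 and 13.9 TPM with saline. The groups were apart by a small margin, since saline replicate 3 was close to the highest vasostatin-2 library (log2 fold change −0.51, SE 0.17; edgeR unadjusted p = 0.0214, adjusted p = 0.657).

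Hilpda, which coats lipid droplets and inhibits their breakdown, was at 22.8, 25.02 and 19.4 TPM with vasostatin-2 and 25.03, 41.9 and 27.7 TPM with saline. Its groups just failed to overlap, and the log2 fold change of −0.48 (SE 0.24; edgeR unadjusted p = 0.0886) was −0.17 without saline replicate 2, the library with the highest level. The mitophagy receptor Bnip3 was at 99.5, 83.4 and 75.4 TPM with vasostatin-2 and 66.8, 128 and 80.2 TPM with saline, and its relative Bnip3l, needed to clear mitochondria from maturing red cells, ranged from 65.9 to 92.8 TPM. Both were highest in saline replicate 2, and their log2 fold changes of −0.099 (SE 0.27) and −0.077 (SE 0.16) became 0.27 and 0.14 without it. The 8 erythroid markers in the table summed to 43447 TPM in that library, 7036 and 9524 TPM in the other saline libraries, and between 1171 and 8728 TPM with vasostatin-2. Their part in these genes was not tested.

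The collagen prolyl hydroxylases and the remaining targets overlapped between groups. P4ha2, a catalytic subunit of collagen prolyl 4-hydroxylase, was at 66.0, 76.4 and 106 TPM with vasostatin-2 and 122, 59.9 and 101 TPM with saline, and P4ha1, its relative, ranged from 60.7 to 104 TPM. For both, the 3 lowest libraries were vasostatin-2 replicates 1 and 2 and saline replicate 2, and the log2 fold changes were −0.17 (SE 0.26) and −0.24 (SE 0.21). Ndrg1, a stress-response gene also strong in Schwann cells, was at 95.2, 106 and 99.8 TPM with vasostatin-2 and 98.4, 89.9 and 149 TPM with saline. The one high value was saline replicate 3, the library with the high Schwann cell markers, and the log2 fold change of −0.15 (SE 0.17) became 0.087 without it. The part of these cells in the Ndrg1 level was not tested. Car9, the cell-surface carbonic anhydrase used as a marker of hypoxic tumour cells, was scarce, from 2.81 to 4.16 TPM, with a log2 fold change of 0.053 (SE 0.24). It shares 4320 bases with Arhgef39 on the opposite strand, which was at a mean of 7.2 TPM, against 3.49 TPM for Car9. Arhgef39 had a log2 fold change of 0.11, and its part in the Car9 level was not tested. Over the 10 targets the median of −0.20 was −0.39 without vasostatin-2 replicate 3 and −0.31 without saline replicate 2.

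**Figure D4:**
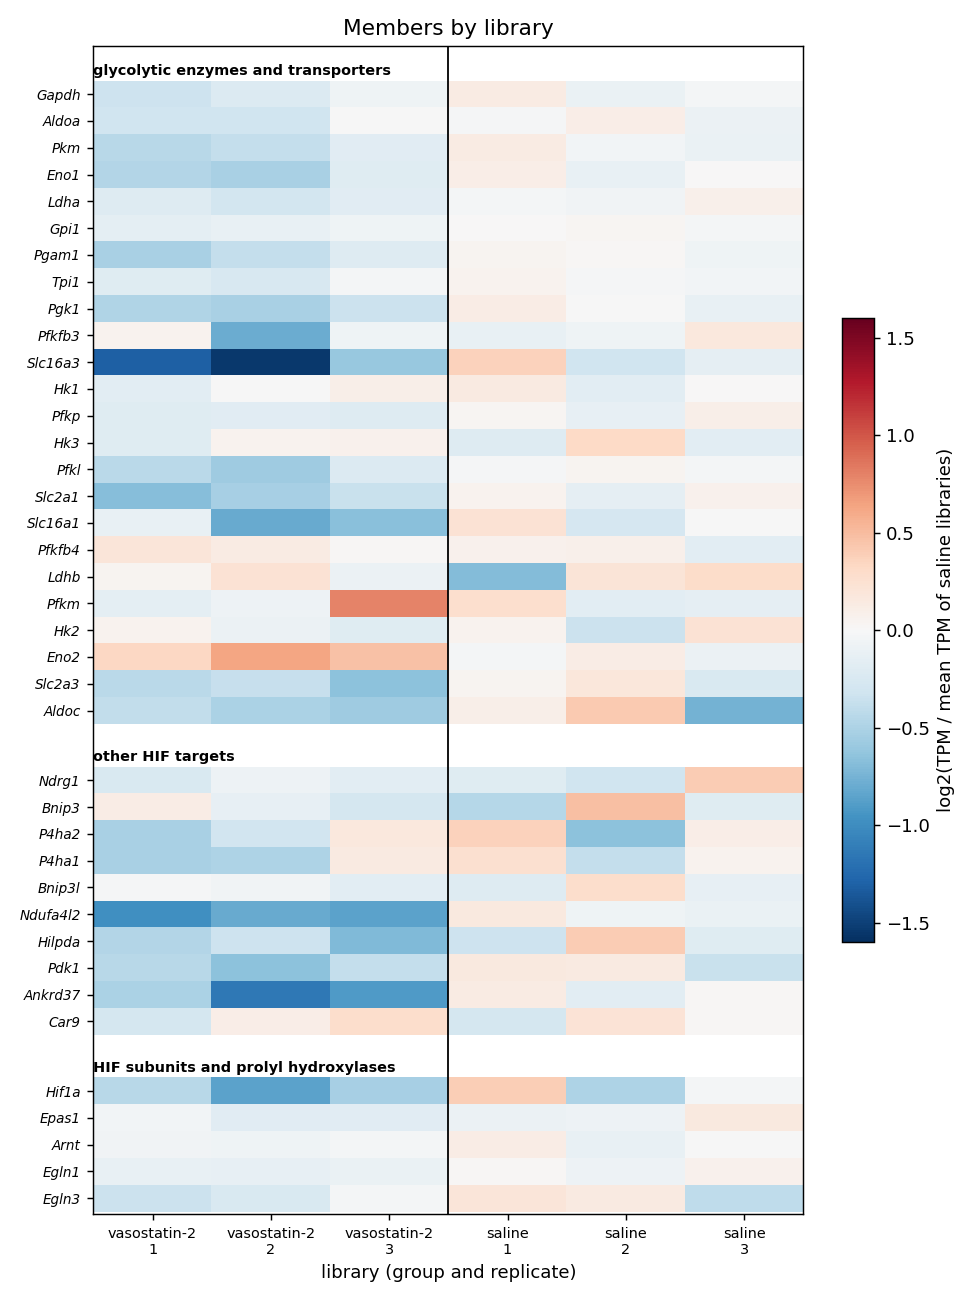
Level of each member in each library as log2 of its TPM over the mean TPM of the 3 saline libraries, with the vasostatin-2 libraries left of the line; blue is lower and red higher. Slc16a3, Ndufa4l2, Slc2a1, Pgk1 and Ankrd37 are blue in all 3 vasostatin-2 libraries, Eno2 is red in all 3, and Pfkm is red in vasostatin-2 replicate 3.

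Among the HIF subunits, Hif1a had the largest difference and its partner Arnt almost none. Hif1a, the alpha subunit that drives the glycolytic targets, was at 122, 91.7 and 115 TPM with vasostatin-2 and 218, 118 and 163 TPM with saline. The saline libraries spread widely, and the highest vasostatin-2 library lay just above the lowest saline library. The log2 fold change was −0.57 (SE 0.21; edgeR unadjusted p = 0.0296, adjusted p = 0.681), or −0.35 without saline replicate 1, the highest library. Epas1, which encodes HIF-2 alpha and is strong in endothelium, was at 65.9, 60.4 and 60.2 TPM with vasostatin-2 and 64.1, 64.7 and 75.9 TPM with saline, with overlapping groups (log2 fold change −0.13, SE 0.083). The 10 endothelial markers summed to between 1227 and 1369 TPM with vasostatin-2 and between 1170 and 1447 TPM with saline. Of these 10, 3 were lower and 0 higher at an unadjusted p of 0.05, where 3.85% of all tested genes were lower. Their part in the Epas1 value was not tested. Arnt was at 38.7, 38.2 and 39.2 TPM with vasostatin-2 and 43.5, 37.1 and 39.9 TPM with saline (log2 fold change −0.036, SE 0.062). Hif1a (gene 15251) lies on chromosome 12 from 73843039 to 73952974. HIF-1 alpha is controlled mainly at the protein level, which was not measured.

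The oxygen sensors had small differences. Egln1, the main prolyl hydroxylase of the alpha subunits, was at 33.3, 32.9 and 33.7 TPM with vasostatin-2 and 36.6, 34.1 and 37.9 TPM with saline. Its groups did not overlap, by a narrow margin (log2 fold change −0.11, SE 0.057; edgeR unadjusted p = 0.091). Egln3, a hydroxylase that is itself a HIF target, was at 7.76, 8.30 and 9.60 TPM with vasostatin-2 and 11.2, 10.8 and 7.41 TPM with saline, with saline replicate 3 lowest of all (log2 fold change −0.20, SE 0.19). Of the 5 genes, only Hif1a had an unadjusted p under 0.05, as did 7.14% of all tested genes.

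Genes of the same pathways outside the 39 had medians closer to 0 than the glycolytic members (−0.21). The median of the HIF genes among them lay between those of the other HIF targets (−0.20) and of the HIF subunits and hydroxylases (−0.13). Of 33 further glycolysis and pyruvate genes listed, 32 were in the table and 27 passed the low-count filter, and 2 of these were lower and 0 higher at an unadjusted p of 0.05, with a median log2 fold change of −0.028. They were Pgm2, a phosphoglucomutase (−0.20, SE 0.066), and the glucose transporter Slc2a6 (−0.41, SE 0.15). Of 34 further HIF pathway genes, 32 were tested, 7 were lower and 2 higher at the same threshold, and the median was −0.16. Over all tested genes, 3.85% were lower and 3.29% higher at it. edgeR called 0 of either list after adjustment, and 0% of all tested genes. DESeq2 called 1, Nos2, and 0.809% of all genes with an adjusted value.

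Nos2, the inducible nitric oxide synthase of activated macrophages, was at 2.49, 2.17 and 3.01 TPM with vasostatin-2 and 6.13, 4.12 and 5.99 TPM with saline. The groups were apart (log2 fold change −1.08, SE 0.19; edgeR unadjusted p = 8.14e-04, adjusted p = 0.422; DESeq2 adjusted p = 0.00136). The haem oxygenase Hmox1 (−0.86, SE 0.29), the Myc antagonist Mxi1 (−0.36, SE 0.13) and the mitochondrial protein Fam162a (−0.24, SE 0.086) were also lower in log2 fold change. Adm, the vasodilator peptide adrenomedullin and a HIF target, was higher, at 31.3, 25.7 and 28.2 TPM with vasostatin-2 and 22.1, 12.3 and 23.4 TPM with saline (log2 fold change 0.58, SE 0.21; edgeR unadjusted p = 0.031). Egln2, the third prolyl hydroxylase, was likewise higher, at 62.9, 64.0 and 62.0 TPM with vasostatin-2 and 56.9, 49.2 and 56.9 TPM with saline (log2 fold change 0.21, SE 0.063; edgeR unadjusted p = 0.0118).

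Of the 16 members with an unadjusted p under 0.05, 8 kept it whichever library was left out, and 7 of these were lower: Slc16a3, Ndufa4l2, Ankrd37, Slc2a1, Pgk1, Pfkl and Pgam1. The eighth was Eno2, higher. How many of all tested genes kept an unadjusted p under 0.05 in this way was not counted, so these 8 are a description. Without vasostatin-2 replicate 2, 8 members were lower at that threshold in place of 15, and the share of all tested genes lower at it was then 1.70% in place of 3.85%.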

How the data were processed

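Bulk RNA sequencing of injured femoral arteries, with 6 libraries, 3 per group, was used as deposited. Per the submitters' processing notes, HISAT2 2.1.0, DESeq2 1.26.0 and GRCm38.p6 were used. The counting tool and strandedness are not given in the sources used here, so reads of overlapping genes on opposite strands could not be separated. The authors deposited estimated counts per gene, of which 65.6% are whole numbers, and TPM values. The deposited table also holds the authors' own DESeq2 comparison, with log2 fold changes (positive when higher with vasostatin-2) and q-values beside p-values; only q-values are quoted.

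Estimated counts were rounded, filtered with edgeR's filterByExpr (14557 genes left) and scaled by TMM, with factors from 0.985 to 1.01. The quasi-likelihood test (edgeR 4.0.16, R 4.3.3, robust) had treatment as its only term, with Benjamini-Hochberg adjustment over all tested genes. The biological coefficient of variation was 16.1%. SE is the fold change divided by the root of its F statistic. At this depth 3 counts are 0.149 to 0.155 CPM. DESeq2 1.42.0 and limma-voom 3.58.1 with quality weights were alternatives; DESeq2 left 584 adjusted p-values undefined. The edgeR test was tested on simulated data. Libraries of a group differed beyond counting noise, so none was counted as a duplicate. Same-numbered libraries were not paired by the labels or the data.

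The members and lists were chosen with earlier results of these data known. Values in every library were given for members with an unadjusted p under 0.05, for groups apart in TPM, for the 3 highest members per role and for the HIF subunits and hydroxylases. Further pathway genes were named by smallest p, at most 8. Promoters are from RefSeq (GRCm38.p6). Marker lists partly overlap the pathway lists (Bpgm and Cox4i2). Alternatives were other scalings, no filter, other tests, a replicate block and left-out libraries.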

Additional observations from a re-analysis of the deposited data

How the results depend on the processing

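Direction and side of the adjusted threshold were the same for all 39 members under DESeq2 size factors, upper quartile scaling, TMM without skeletal muscle and erythroid genes, and no low-count filter. None of the scalings moved the median of all genes by more than 0.1. Over 15 alternatives 27 members never changed sign. DESeq2 called 113 genes and 4 members, all 4 lower. When single libraries were left out, edgeR called between 0 and 2 genes. At an unadjusted p of 0.05, between 8 and 14 members were then lower, where between 1.70% and 5.72% of all tested genes were. A further alternative, chosen after seeing the data, dropped vasostatin-2 replicate 3 as well as saline replicate 2. edgeR then called 2 genes, and 3 members were higher at an unadjusted p of 0.05, as were 5.42% of all tested genes. Without both replicates 3, 0 members were higher at it, where 2.51% of all tested genes were. These counts of higher members are a description. The median of the other HIF targets was −0.28 with limma-voom, −0.41 without both replicates 3, −0.34 without saline replicate 2 and vasostatin-2 replicate 3, and between −0.39 and −0.16 when single libraries were left out.

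Sign changes touched 12 members. With single libraries left out, log2 fold changes ranged from −0.079 to 0.055 for Hk1, −0.19 to 0.044 for Hk2, −0.12 to 0.22 for Hk3, −0.11 to 0.42 for Pfkm, −0.37 to 0.017 for Pfkfb3, −0.20 to 0.23 for Ldhb, −0.30 to 0.27 for Bnip3, −0.19 to 0.14 for Bnip3l, −0.087 to 0.21 for Car9, −0.26 to 0.087 for Ndrg1, −0.38 to 0.039 for P4ha2 and −0.055 to 0.0038 for Arnt. Without both replicates 3 the sign turned for Hk2 (0.10), Pfkm (−0.19), Car9 (−0.091) and Ndrg1 (0.090). Without saline replicate 2 and vasostatin-2 replicate 3 it turned for Hk3 (0.17), Pfkm (−0.15), Bnip3 (0.36) and Bnip3l (0.18). With limma-voom it turned for Hk3 (0.12), Bnip3 (0.060) and Bnip3l (0.030). The cause was not tested. With single libraries left out, the share difference in percentage points ranged from −1.81 to 0.860 for Hk2, −2.41 to 4.78 for Hk3, −1.17 to 3.59 for Pfkp, −1.26 to 0.679 for Slc2a1, −1.50 to 2.32 for Bnip3, −3.19 to 0.120 for P4ha1 and −3.40 to 0.473 for Egln3, and kept its sign for the other 5 shares.

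Replicate number as a block is an alternative only, since libraries with the same number had correlations of deviations of −0.12, 0.025 and 0.027, and no library correlated best with its own number. The block gave 13 members lower and 1 higher at an unadjusted p of 0.05, where 3.31% of all tested genes were lower and 2.80% higher, and called 0 genes; Hk3 turned to 0.013. Depth was nearly equal between libraries. With 3 libraries per group, a larger p does not show that a member did not differ.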
